A study of Mus musculus with 25 samples.

Results

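The RNA content of cauda epididymal sperm was compared between the second and the first generation of a C57BL/6J lineage exposed to DEHP, a phthalate plasticizer. The genes compared were those with an estimate in both conditions and at least 10 estimated counts in 1 of them, which left 17133 of the 24358 genes of the deposited table. The comparison rests on 10 of the 25 libraries of the series. C57.D300.F1 holds 5 C57BL/6J males whose mothers received 300 mg/kg/day DEHP by mouth from embryonic day 9 to 19. C57.D300.F2 holds 5 C57BL/6J males of the next generation of that lineage, which the labels call the second one after exposure and which descend from exposed males mated to unexposed females. All were 14 weeks old by the labels. The 3 other conditions, shown beside the comparison, were C57BL/6J and FVB/N males of the first generation whose mothers received corn oil (C57.CTL.F1 and FVB.CTL.F1), and FVB/N males exposed like C57.D300.F1 (FVB.D300.F1), with 5 libraries each. The C57.D300.F1 and C57.CTL.F1 libraries were carried over from an earlier study, while the C57.D300.F2 and both FVB/N sets were new. Generation and library set therefore coincide in this comparison and cannot be told apart. In addition, no second generation of vehicle-treated mothers was measured.

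Mature spermatozoa carry RNA left from spermatogenesis and take up further RNA while they pass through the epididymis, so a swim-out from the cauda can hold transcripts of germ cells, of epididymal epithelium and of other cells. Hepatocytes, in contrast, are known as the main source of albumin, clotting factors, apolipoproteins and many drug-metabolising enzymes of the body. Their gene program depends on a small group of transcription factors, among them HNF1, HNF4 and C/EBP proteins. Seminal vesicle, prostate and coagulating gland lie downstream of the epididymis and secrete the proteins of the seminal plasma.

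The deposited table gives 1 estimated count per gene and condition, combined over the 5 libraries and not divided by gene length, so counts were compared between conditions and not between genes. There was no value for a single library. The differences below therefore have no replicate check and no p-value, and a gene is called lower or higher when the log2 ratio of C57.D300.F2 to C57.D300.F1, with 1 added to each count, reached 2 in size. The only error available was the SD of each count under the Cuffdiff model, called model SD here, which is not a spread measured between the 5 males. The counts summed to 7748902 over the first generation and 6921688 over the second. An estimate failed in at least 1 of these conditions for 50 genes, which were left out. Sperm transcripts were present in both, and the protamine gene Prm2 had 12610.3 and 6651 counts.

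In the second generation, 566 of 17133 genes were called lower (3.30%) and 57 higher (0.333%), 623 in all (3.64%). Genes known from hepatocytes led those lower in C57.D300.F2. Their 14 lists, drawn up by function in liver, took 8.62% of all counts in the first generation and 1.34% in the second. The genes higher in C57.D300.F2 included Akr1b7, an aldo-keto reductase of the vas deferens, Ptgs2, the inducible cyclooxygenase, and some secretory genes of seminal vesicle and prostate. Most other genes differed little. The median log2 ratio over all genes was -0.05, and the middle 90% lay between -1.35 and 0.77. Among genes reaching 1000 counts, 115 of 1503 were called lower (7.65%) and 4 higher (0.266%). The 4 were Akr1b7, Ptgs2, Acsl6 and 9530053A07Rik. Among genes with 10 to 100 counts, 138 of 6694 were called lower (2.06%) and 34 higher (0.508%). The difference exceeded its model SD for 543 of the 566 lower genes and 53 of the 57 higher ones. This adds little to the call itself. The median model SD was 0.28 of the count in both conditions, so most changes of 2 log2 units exceed it. Among the lower genes, 548 had a RefSeq type, namely 515 protein coding genes, 15 lncRNAs, 10 transcribed pseudogenes and 8 microRNAs.

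**Figure D1:**
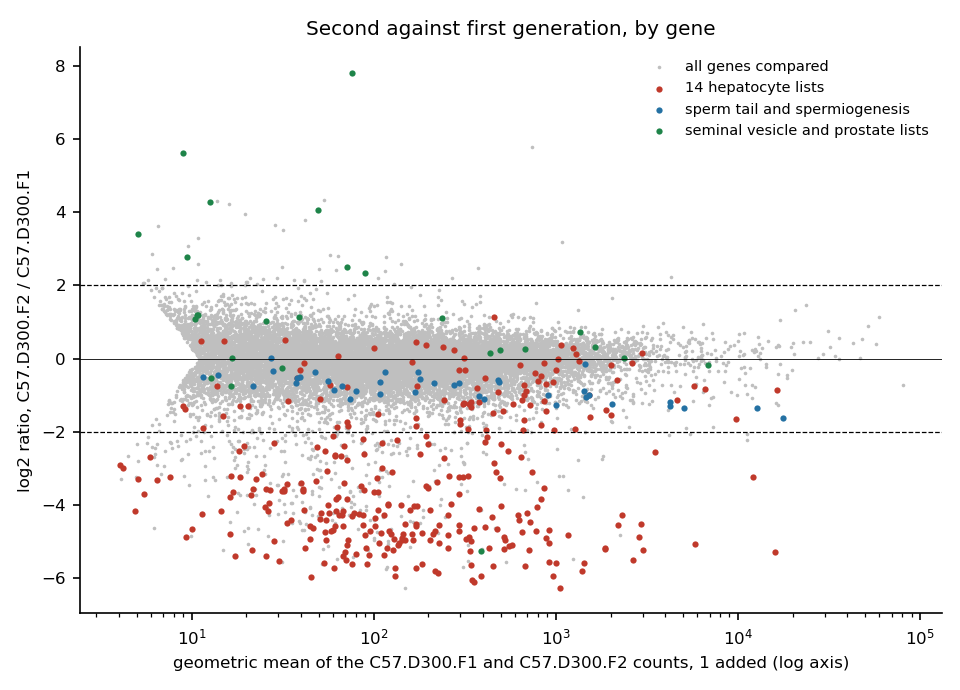
Each point is 1 of the 17133 genes compared, with the geometric mean of both counts on a log x axis and the log2 ratio of C57.D300.F2 to C57.D300.F1 on the y axis; dashed lines mark 2 log2 units. Genes of the hepatocyte lists (red) lie mostly below -2, sperm tail genes (blue) lie between -1.62 and 0.02, and genes of the seminal vesicle and prostate lists outside the hepatocyte lists (green) run from -5.26 to 7.82.

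The hepatocyte lists held 356 genes by their function in liver, of which 351 were in the table and 321 were compared. The lists were drawn up with earlier results of these data known, and their direction is thus no independent evidence. Of the 321, 231 were called lower (72.0%, against 3.30% of all genes), none was called higher, and the median log2 ratio was -3.72 against -0.05 for all genes. They made up 40.8% of all genes called lower. Among the 106 with at least 1000 counts in C57.D300.F1, C57.D300.F2 held under 5% of the first-generation count for 58, between 5% and 25% for 20, between 25% and 50% for 14 and at least 50% for 14. In the 58, the median of what remained was 2.92%, with a range from 1.28% to 4.86%. RNA from whole samples cannot show whether fewer cells of a type or less RNA per cell lay behind such a difference.

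Carrier proteins of the blood plasma were among the lists with the lowest values. Of 25 compared, 22 were called lower, with a median of -4.69. Alb, which encodes albumin, had 100464 counts in C57.D300.F1 compared with 2559 in C57.D300.F2, a log2 ratio of -5.29. Its model SD in C57.D300.F1 was 443754 counts, so this difference did not exceed the model SD. The vitamin D carrier Gc had 11285 and 309.9 counts, a difference slightly larger than its model SD. Ttr, the carrier of thyroid hormone, had 17995 and 394 counts. The haem carrier Hpx had 4667 and 179. What remained of these 4 transcripts lay between 2.19% and 3.84% of the first generation. Trf, the iron carrier transferrin, kept more, with 37152 and 3936 counts (10.6%), and Igf1, the liver-derived growth factor, kept most, with 1210.2 and 774 (64%).

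Apolipoproteins carry lipids between organs, and 14 of 17 were called lower with a median of -4.37. Apob, the scaffold of low density lipoprotein, had 34143 counts in the first generation and 1002 in the second. For Apoa1, the main protein of high density lipoprotein, the counts were 10601 and 453, and for Apoa2 they were 11295 and 305. Apoe, which macrophages and other cells also make, retained 31.8% of its 17266 counts. Pltp, a phospholipid transfer protein, was nearly level at 896 and 821 counts. Members of this list thus differed in how much of their count the second generation held.

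Clotting factors were called lower in 22 of 23 cases, with a median of -4.76. The 3 fibrinogen chains Fga, Fgb and Fgg lie side by side on chromosome 3 of GRCm38, from 83007724 to 83049863. Fgg had 15663 counts in C57.D300.F1 compared with 528 in C57.D300.F2, Fgb had 6243 and 218, and Fga had 10221 and 523. Prothrombin, encoded by F2, had 3352 and 97.4 counts, and its inhibitor Serpinc1 had 3173 and 84.5. Complement genes were lower less uniformly, with 13 of 20 called and a median of -2.88. C9, a pore subunit made by hepatocytes, had 1509 and 55.7 counts (-4.73). The central factor C3 had 21965 and 12174 (-0.85) and was not called.

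Protease inhibitors of the Serpina cluster were called lower in 10 of 14 cases (median -4.14). Serpina3k had 10465 counts in the first generation and 186 in the second, and Serpina1e, a copy of alpha-1-antitrypsin, had 9912 and 204. The exception with the highest count was Serpina3n, with 576 and 250.4 counts (-1.20). Major urinary proteins, pheromone carriers made in liver, were called lower in all 10 genes compared, out of 21 in the table, of which 4 had a failed estimate and 7 stayed under 10 counts. In 6 of the 10 the second generation had at most 3 counts. With values under 3 set to 3, 7 of the 10 were past 2 log2 units, and with 10 counts added 4 were. Mup3 had 9264 counts and 119, and Mup20 had 6973 and 142. Both families consist of close copies, among which reads may have been divided, so single members are uncertain. Acute phase and iron hormone genes were called lower in 10 of 15 cases. The iron hormone Hamp had 476 and 9.5 counts, and the acute phase protein Orm1 had 913 and 28.3. In this list Lbp, a binder of bacterial lipopolysaccharide, was level at 1370.5 and 1314 counts, while Lcn2, also an epididymal lipocalin, was the only member that was higher (309 and 675 counts, 1.12).

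Enzymes of drug and steroid metabolism were lower as well. Of the cytochrome P450 and reductase genes, 32 of 41 were called lower, with a median of -4.29. Cyp2e1, which oxidises ethanol, had 14060.1 counts in C57.D300.F1 compared with 612 in C57.D300.F2. Cyp3a11 had 6338 and 133, and Cyp2d9, a steroid hydroxylase of male liver, had 2957 and 42 (-6.10). Cyp51, an enzyme of cholesterol synthesis found in many cells, was level with 1241 and 1354 counts, and so was Por, the reductase that serves all microsomal P450 enzymes (1035 and 1028). Conjugating enzymes were called lower in 18 of 32 cases. Sult2a8 had 2856 and 41.5 counts and Ugt2b1 had 1727 and 28.4. The glutathione transferase genes Gstm1 (2660.3 and 1769.8 counts) and Gstm2 (2845 and 3137) kept most or all of theirs.

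Amino acid breakdown and the urea cycle had 33 of 47 genes called lower, with a median of -3.64. Cps1, the first enzyme of the urea cycle, had 18397 counts in the first generation and 490.0 in the second (2.66% retained). Bhmt, which remethylates homocysteine, had 7572 and 121 (1.6%). Cbs, at the entry of transsulfuration, remained at 2719 and 2518 counts, and the glycine cleavage gene Gldc was slightly higher at 1123 and 1367. Liver sugar metabolism had 9 of 16 genes called lower, among them Pck1 of gluconeogenesis (2727 and 139.6 counts) and G6pc, which releases free glucose (950.0 and 16.9). Bile acid synthesis and transport had 19 of 21 called lower. The uptake carrier Slco1b2 had 3261 and 62.4 counts and the bile salt export pump Abcb11 had 1372 and 47. Fatty acid oxidation was the hepatocyte list with the smallest share called lower, 11 of 27 genes, and a median of -1.62. In it the liver fatty acid binding protein Fabp1 had 4847 and 93.7 counts, whereas Hadha, a subunit of the mitochondrial trifunctional protein of all tissues, had 1129 and 694.

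The transcription factors of hepatocytes followed, with 11 of 18 called lower and a median of -2.90. Hnf4a had 478 counts in C57.D300.F1 compared with 28.7 in C57.D300.F2. The bile acid receptor Nr1h4 had 222 and 10.8, and Ppara, the receptor for fatty acids through which phthalates are known to act in rodent liver, had 789 and 84.5 (-3.21). Foxa1 was higher, with 168 and 219 counts (0.38), and Cebpb was lower without being called (222 and 133, -0.74). Foxa1 and Cebpb are also expressed in many other epithelia.

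Genes of other liver cells were lower beside those of hepatocytes. Of 20 compared, 8 were called lower and none higher (40%, against 3.30% of all genes, for the lower ones), with a median of -1.40. Clec4f, a receptor of Kupffer cells, had 179 counts in the first generation and 8.75 in the second, and the macrophage genes Cd5l and Vsig4 had 181 and 19.8 and 101 and 10.4 counts. The sinusoidal endothelial genes Stab2 (343 and 32 counts) and Clec4g (107 and 5.33) were also called lower. Stellate cell genes were not called, with 182 and 139 counts for Lrat and 835 and 308 for Reln (-1.43). Krt19 and Epcam, markers of bile ducts that epididymal epithelium also expresses, were higher without being called (0.82 and 0.66), while Krt7, another gene of bile ducts, was lower without being called (-0.33). The counts of the list summed to 7014 in the first generation and 7307 in the second, with 1723 and 3044 of Krt19 and 1414 and 2241 of Epcam among them.

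**Figure D2:**
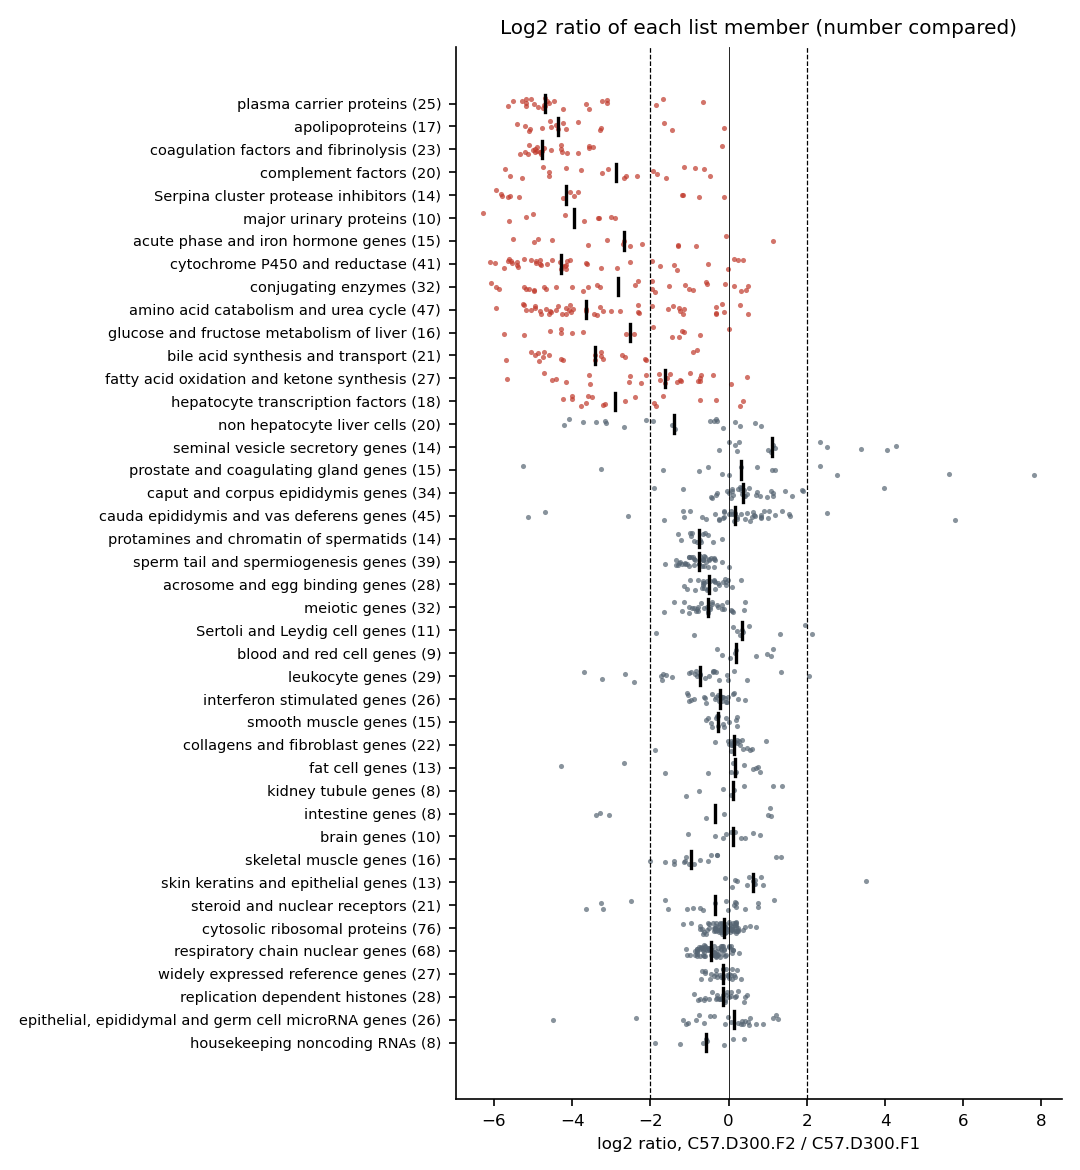
Log2 ratio of C57.D300.F2 to C57.D300.F1 for each compared member of the lists with at least 8 compared members (points; jitter along y has no meaning), with the number compared in parentheses and the list median as a black bar; dashed lines mark 2 log2 units. The 14 hepatocyte lists (red) have medians between -4.76 and -1.62, and the medians of the other lists lie between -1.40 and 1.12.

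Among the 15 genes with the largest decreases, out of 10439 that reached 100 counts, 13 belonged to the hepatocyte lists. Their log2 ratios ran from -6.27 for Mug2, a plasma protease inhibitor of the murinoglobulin family, to -5.73 for the complement-related plasma protein gene Cfhr2. Mug2 had 1307 counts in C57.D300.F1 compared with 15.9 in C57.D300.F2. The other gene outside the lists was Elovl3, a fatty acid elongase, with 859 and 14.8. The remaining 12 were Mup3, Cyp2d9, Sult2a8, Cyp2c54, Ugt2b5, Bhmt, Serpina1b, Ugt2b1, Serpina1d, Serpina3k, Cyp1a2 and G6pc.

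Of the 566 genes called lower, 335 were outside the hepatocyte lists and 308 outside all lists. The examples that follow were chosen after their values were seen. Many are known from liver as well, such as the plasma inhibitors Pzp (11952 and 422 counts) and Mug1 (8305 and 184), the peroxisomal urate oxidase Uox (2836 and 92.8), and the growth hormone receptor Ghr (1519 and 292). Others are not particular to liver. The snoRNA host gene Snhg8 had 23075 counts in the first generation and 5522 in the second, and Gm20594 had 24364 and 5166, with 22214 in FVB.CTL.F1. Rbp2, an intestinal retinol binding protein, had 2539.5 and 242 counts, while C57.CTL.F1 had 154, so its high value was that of C57.D300.F1 among the C57BL/6J conditions.

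Some of the lower genes lay side by side on the chromosomes. Grouping those less than 200000 bases apart gave 14 runs of at least 4 genes, which together held 68 of the 566 (RefSeq positions, GRCm38.p6). The one with most genes was the Serpina cluster on chromosome 12 from 103616675 to 104086920, with 10 genes called lower. Next came 6 genes of the Cyp2d family on chromosome 15 from 82402845 to 82794452. On chromosome 16 from 22892015 to 23082078, Ahsg, Fetub, Hrg, Kng2 and Kng1, all plasma glycoproteins of related structure, formed a run of 5. Runs of 4 included Apoa1, Apoc3, Apoa4 and Apoa5 on chromosome 9 from 46228630 to 46271921, and the murinoglobulin genes on chromosome 6 from 121838496 to 122248566. Most of these runs are families of duplicated genes.

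The promoters of the lower genes were examined because many of these genes are known from liver. RefSeq promoters of 300 bases (250 before to 50 after the start, GRCm38.p6) were matched by symbol for 410 of the 566 lower genes, for 44 of the 57 higher ones and for 12663 of the 17133 compared. The letters GTTAATNAT, the core of the HNF1 site with N for any base, were found on either strand in 27 of the 410 (6.59%), in 1 of the 44 (2.27%), in 0.742% of the genes compared and in 0.94% of all 27025 promoters. The letters CAAAGTCCA, the core of an HNF4 site, were found in 13 of the 410 (3.17%), in none of the 44 and in 0.6% of the genes compared. TATAAA occurred in 103 of the 410 (25.1%), in 15 of the 44 (34.1%) and in 10.1% of the genes compared. No test was made of these shares, and a match describes letters and not a bound site. The 6 lower genes with the highest counts in C57.D300.F1 among those with the first pattern are shown, to let a reader see the shared letters, with the match in capitals and 10 bases to each side on the strand of the gene. In Pzp, Fga and Hc the pattern reads on the opposite strand, and the capitals are its reverse complement.
Alb (chr5:90460828-90460856, plus strand): ggtaagtatgGTTAATGATctacagttat
Pzp (chr6:128526904-128526932, minus strand): agtcctgtgtATTATTAACcgtgagctag
Gc (chr5:89457932-89457960, minus strand): cagtgacaaaGTTAATGATtaaaacctcc
Fga (chr3:83026097-83026125, plus strand): gccaagggtgATGATTAACctcctgccgg
Hc (chr2:35061471-35061499, minus strand): tctgacattaATAATTAACcggagaacta
Slco1b2 (chr6:141629442-141629470, plus strand): tgaagagataGTTAATCATcactgaactg

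The promoter of Alb, the lower gene with the highest count, is given whole as an example, at chr5:90460620-90460919 on the plus strand. The capitals mark the GTTAATNAT match, which begins 32 bases before the annotated start.
Alb promoter: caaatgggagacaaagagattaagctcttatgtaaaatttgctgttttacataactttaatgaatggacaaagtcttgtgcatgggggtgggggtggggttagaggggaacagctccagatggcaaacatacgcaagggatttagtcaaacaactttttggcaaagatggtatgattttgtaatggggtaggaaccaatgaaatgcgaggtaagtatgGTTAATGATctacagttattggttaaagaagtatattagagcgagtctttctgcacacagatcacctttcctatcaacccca
Beside Alb and Gc, described above, Pzp had a log2 ratio of -4.82, Fga of -4.29 and Slco1b2 of -5.68. Hc, which encodes complement C5, had 3295 and 92.5 counts.

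The other 3 conditions were set beside both generations. Over the 562 lower genes with an estimate in all conditions, the median count of C57.CTL.F1 was 318 and that of C57.D300.F1 289. The median was 19.8 for the second generation, and the FVB/N sets had 11.2 (vehicle) and 10.3 (DEHP). By these medians, both older C57BL/6J sets were high and all newly made sets were low. C57.CTL.F1 lay within 2 log2 units of C57.D300.F1 for 554 of the 562. FVB.CTL.F1 lay at least 2 log2 units below C57.D300.F1 for 517 of them, and was below C57.D300.F2 by any amount for 438. The 562 had been selected as high in C57.D300.F1 against C57.D300.F2. The same shares were not computed over all genes compared, so these counts have no background to be read against. The 58 hepatocyte genes that kept under 5% had 15.6 to 2559 counts in the second generation and 1.87 to 524 in the FVB/N vehicle set. The 14 that kept at least 50% had 694 to 12174 and 412 to 5582. The high levels of hepatocyte genes were thus found in both reused sets and the low levels in all 3 new sets, which differ in strain, exposure and generation. No first-generation C57BL/6J libraries were made in the new set, so generation cannot be separated from library set. A vehicle group of the second generation was not measured either.

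**Figure D3:**
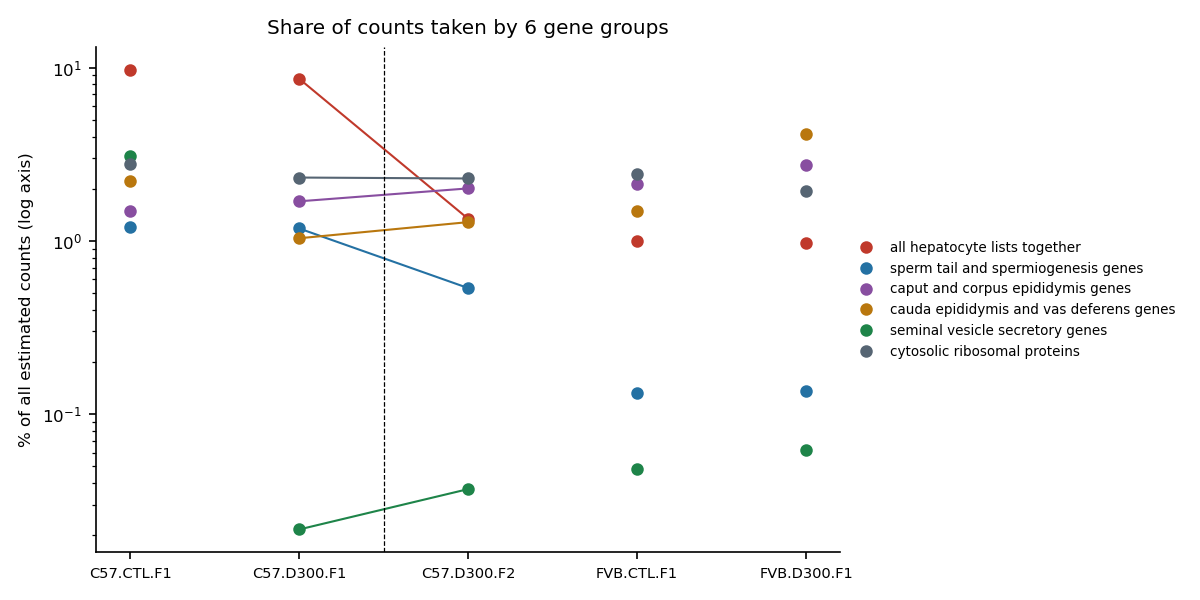
Share of all estimated counts (y axis, log scale, in %) taken by 6 gene groups in each condition, with the 2 generations joined by a line; the dashed line separates the reused libraries (left) from the new ones (right). The hepatocyte lists take 9.68% and 8.62% on the left and 1.34%, 0.999% and 0.966% on the right.

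The 57 higher genes had a median count of 8.75 in the first generation and 68.5 in the second. Their medians were 17.4 for the C57BL/6J vehicle set, 53.1 for the FVB/N vehicle set and 59.2 for the exposed FVB/N set. FVB.CTL.F1 was within 2 log2 units of C57.D300.F2 for 38 of them, a share that was not computed over all genes. With a first-generation median under 10 counts, most of the 57 were compared only through their count in C57.D300.F2. The gene with the highest count was Acsl6, which activates long-chain fatty acids and has a testis form, with 1992 and 9346 counts, 1439.7 for C57.CTL.F1 and 4677 for the FVB/N vehicle set. It fell outside the naming rule and was chosen after its values were seen.

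Akr1b7 and Ptgs2 stood out by level. Akr1b7, which reduces aldehydes and is known as a major protein of the mouse vas deferens, had 98.8 counts in C57.D300.F1 compared with 5508 in C57.D300.F2 (log2 ratio 5.79, model SD of the difference 3051 counts). C57.CTL.F1 had 127 counts, FVB.CTL.F1 14293 and FVB.D300.F1 5954. Ptgs2, which makes prostaglandin precursors and is known from the distal tract, had 356 and 3276 counts (3.20), against 748, 10401 and 3227 in the same 3 conditions. For both genes the reused sets were the low ones and the new sets the high ones. The potassium channel gene Kcnj16 (10.2 and 155 counts), the keratin Krt4 (8.38 and 107), the lipid transporter Mfsd2a (20.6 and 152) and the growth factor Bmp3 (43.6 and 306) showed the same order, each with its highest count in FVB.CTL.F1. The remaining genes among the 15 largest increases, beside those described below, were Glb1l3, BC048679, 4930528G23Rik, Gm5087, 2300002M23Rik and Fosb.

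Secretory genes of the accessory glands formed a different group. In the seminal vesicle list, 14 of 21 genes in the table were compared, 5 were called higher (35.7%, against 0.333% of all genes), none was called lower and the median was 1.12. Svs2, a main clotting protein of the copulatory plug, had 11.2 counts in the first generation and 201 in the second. Svs4 had 28.8 and 168, and Svs5 had 1.86 and 54.2. Svs5 thus reached 10 counts only in C57.D300.F2 and was compared through its high value, while 7 members stayed under 10 counts. The share called higher depends in part on this filter, and with 10 counts added the list median was 0.70. C57.CTL.F1 was far above both, with 54433 counts of Svs2, 63518 of Svs4 and 48670.3 of Svs5. The list took 3.09% of counts in this vehicle set, 0.0216% in the first and 0.037% in the second exposed generation. The members with the highest count in C57.D300.F2, Svs1 (619 and 744 counts) and Spinkl (458 and 535), differed by less than 0.3 log2 units. How evenly such transcripts were spread over the 5 males of a condition cannot be read from pooled values.

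Genes of prostate and coagulating gland were called higher in 4 of 15 cases (26.7%, against 0.333% of all genes) and lower in 2 (13.3%, against 3.30%). The largest increase among all genes with at least 100 counts belonged to 9530053A07Rik, with 4.08 counts in C57.D300.F1 compared with 1148 in C57.D300.F2, where its model SD was 1105. Pbsn, which encodes the prostate protein probasin, had 0.28 and 62.7 counts, and Tgm4, the transglutaminase that cross-links the plug, had 38.7 and 199.6. Tgm4 is also in the seminal vesicle list and is counted as called in both. C57.CTL.F1 had 2.74 counts of Pbsn, and the FVB/N sets had 0.559 (vehicle) and 18.4 (DEHP). The 2 called lower, Pigr (2408 and 62.1 counts) and Apof (950.2 and 98.7), are also expressed in liver. Spink5 and Mme were level at 7237 and 6449.7 and at 2365 and 2390.0 counts.

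**Figure D4:**
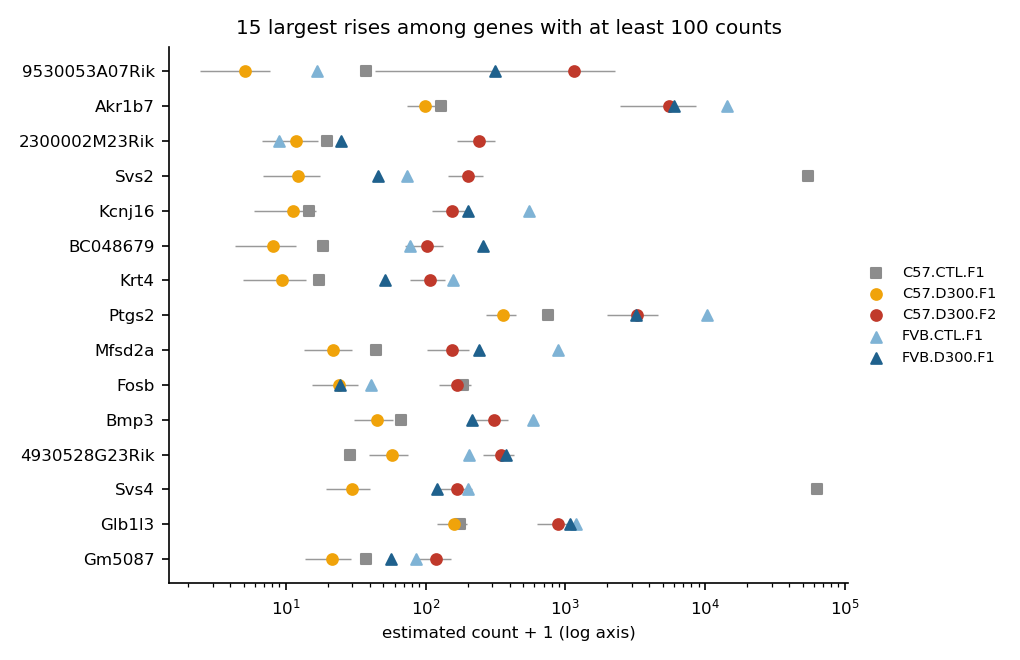
Estimated counts, with 1 added, on a log x axis in the 5 conditions for the 15 genes with the largest increases among those with at least 100 counts; bars on the C57.D300.F1 and C57.D300.F2 points are 1 model SD. Akr1b7 and Ptgs2 are low in both reused sets (squares and orange points) and high in all new sets, whereas Svs2 and Svs4 have their highest counts in C57.CTL.F1.

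Genes of the epididymis were more often higher than lower. In the caput and corpus list, 1 of 34 compared was called higher (2.94%, against 0.333% of all genes) and 0 lower (against 3.30%). Of the 34, 27 had a positive ratio, against 7805 of all 17133 genes, and the median was 0.37. By at least 1 log2 unit, 8 of them were higher (23.5%, against 2.69% of all genes). The antioxidant Gpx3 was level at 47029 and 47313 counts, and so was the sperm surface protein gene Adam7 at 28056 and 30429. The prostaglandin synthase Ptgds had 12514 and 17313 counts. The called gene was the sperm-coating defensin Defb22, with 3.99 and 77.1 counts and with 457 in FVB.CTL.F1. Bsph2, Wfdc13 and Defb42 had ratios of 1.90, 1.87 and 1.44. The lowest ratio of the list was that of Pemt, a phosphatidylcholine-making enzyme that liver also expresses (176 and 46.3 counts, -1.90).

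In the list of cauda and vas deferens genes, 2 of 45 were called higher (4.44%, against 0.333% of all genes) and 3 lower (6.67%, against 3.30%). The median was 0.17, the range ran from -5.13 to 5.79, and 8 were higher by at least 1 log2 unit (17.8%). Spink8, a protease inhibitor of the distal epididymis, had 33319 and 34792 counts, and the water channel Aqp9 had 2070.1 and 1924. The called genes beside Akr1b7 were Car4, a carbonic anhydrase of the epididymal brush border (12.2 and 74.3 counts), on the higher side, with Wfdc21 (331 and 8.47), Akr1c20 (211 and 7.19) and the ribonuclease gene Ang on the lower side. Wfdc21 had 6.25 and Akr1c20 9.16 counts in FVB.CTL.F1. Ang shares part of its locus with Rnase4, so that reads may have been divided between them. Among epithelial genes, 12 of 13 had positive ratios with a median of 0.61, and Krt4 was the only one called. Clu, which epididymal principal cells as well as Sertoli cells express, was higher but not called, with 12996 and 32443 counts (1.32).

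Transcripts of spermatids were lower by a smaller amount, but nearly throughout. Of 39 sperm tail and spermiogenesis genes, 38 were lower, 13 of them by at least 1 log2 unit (against 8.35% of all genes), none was called, and the median was -0.75. The mitochondrial capsule gene Smcp had 31101 counts in the first generation and 10099 in the second (-1.62). Odf1, of the outer dense fibres, had 20238 and 7981, Oaz3, an antizyme of late spermatids, had 8121 and 3179, and the fibrous sheath gene Akap4 had 2103 and 1010.0. Catsper4, a channel subunit of the tail, was level (0.02). With the conditions scaled to equal totals, 37 of the 39 were lower. The whole list took 1.18% of first-generation and 0.534% of second-generation counts.

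Chromatin genes of spermatids showed the same direction, with all 14 compared lower and a median of -0.76. Prm1 had 1162 and 707 counts, and the transition protein gene Tnp1 had 1025 and 551. Acrosome genes were lower in 26 of 28 cases (median -0.51) and meiotic genes in 27 of 32 (median -0.52), which became 21 and 23 with equal totals. C57.CTL.F1 had 35149 counts of Smcp and 21227 of Odf1. FVB.CTL.F1 had 1799 and 2589, and FVB.D300.F1 had 1784 and 2944. For these genes C57.D300.F2 thus lay between the reused and the FVB/N sets. The medians of these 4 lists stayed negative under all 4 other scalings of the conditions.

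MicroRNA genes were more often higher than lower. Of 127 compared, 83 were higher, with a median of 0.33, and 22 were higher by at least 1 log2 unit (17.3%, against 2.69% of all genes). Lower by at least 1 log2 unit were 13 (10.2%, against 8.35%). Calls went more often the other way, since 1 gene was called higher (0.787%, against 0.333% of all genes) and 8 were called lower (6.3%, against 3.30%). The higher one was Mir184, with 8.75 and 43.5 counts. The sequences of 116 were found in RefSeq (GRCm38.p6). Those on which the results turn are shown with the seed (bases 2 to 8), which pairs with target transcripts, in capitals. The gene counts do not separate the arms of a hairpin. The first group, the miR-10 family, shares the seed ACCCUGU, and the second, the miR-99 and miR-100 family, shares ACCCGUA, while miR-192 is a liver and gut microRNA with an unrelated seed.
mmu-miR-10a-5p: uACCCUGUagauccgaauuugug
mmu-miR-10b-5p: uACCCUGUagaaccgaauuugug
mmu-miR-99a-5p: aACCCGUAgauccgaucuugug
mmu-miR-99b-5p: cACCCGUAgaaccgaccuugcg
mmu-miR-100-5p: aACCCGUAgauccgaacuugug
mmu-miR-192-5p: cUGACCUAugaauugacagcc

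The miR-10 family held the highest microRNA counts. Mir10b had 40273 counts in C57.D300.F1 compared with 88039 in C57.D300.F2 (1.13), and Mir10a had 28919 and 35896 (0.31). The model SDs of Mir10b were 44028 and 99176 counts, larger than the counts themselves. The miR-99 and miR-100 family went the other way. Mir100 had 289 and 55.2 counts and was called lower (-2.37), Mir99b had 579 and 259.6, and Mir99a had 308 and 149. The genes of these 2 seed families thus lay on opposite sides of equal counts.

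The other microRNA genes called lower were Mir192, Mir741, Mir150, Mir96, Mir501, Mir7217 and Mir122. Mir122, the main microRNA of hepatocytes, had 11.9 counts at first and 0.306 in the second generation, a difference below its model SD of 29.5. The liver and gut gene Mir192 was lower with 698 and 93 counts, and the testis microRNA gene Mir741, with 169 and 6.52. C57.CTL.F1 had 2535 counts of Mir192. Mir150, a lymphocyte microRNA, had 707 and 170.5 counts, and like Mir96, Mir501 and Mir7217 it was outside the lists and named after its values were seen. Mir34c, a microRNA of late germ cells, was level at 543 and 534 counts, while FVB.CTL.F1 had 13.7. In FVB/N the miR-10 genes were lower than in all C57BL/6J conditions, with 5222 counts of Mir10b for vehicle and 8195 for DEHP. For Mir10b the order of the conditions differed from that of the hepatocyte genes, since C57.D300.F2 was above both reused sets and FVB/N below them.

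**Figure D5:**
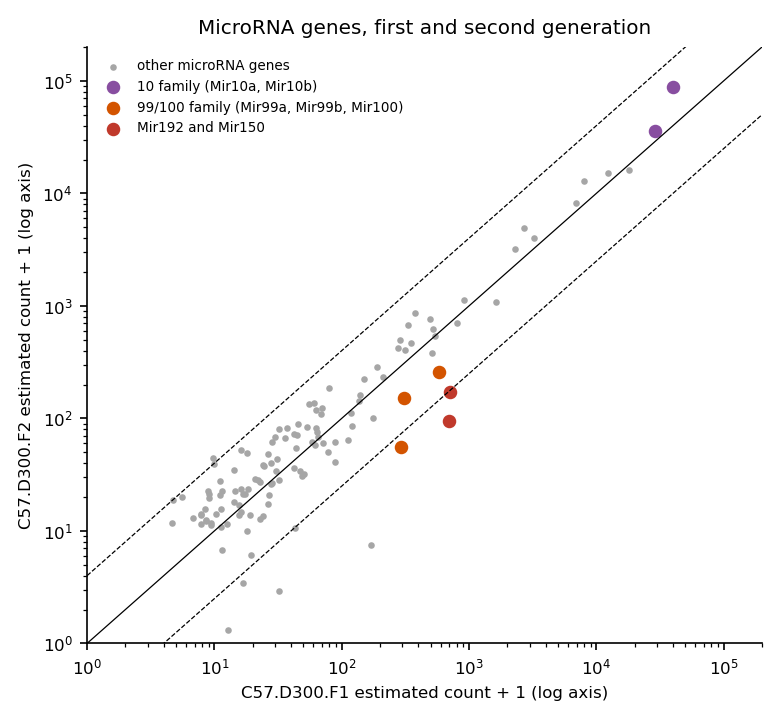
Estimated counts, with 1 added, of 127 microRNA genes in C57.D300.F1 (x axis) and C57.D300.F2 (y axis), both on log axes; the solid line marks equal counts and the dashed lines a 4-fold difference. The Mir10 genes (purple) lie above the solid line, and the Mir99 and Mir100 genes (orange), Mir192 and Mir150 (red) lie below it.

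Genes that all cells use gave the reference level. None of 27 widely expressed reference genes was called, with ratios from -0.71 to 0.31 and a median of -0.14. Actb had 9555 counts in the first generation and 7605 in the second, and Eef2 had 12626 and 13349. None of 76 cytosolic ribosomal protein genes was called (median -0.12). The medians of both lists change sign when the conditions are scaled to equal totals. Nuclear genes of the respiratory chain were lower in 61 of 68 cases with a median of -0.45, in 53 cases with equal totals, and none was called. The ATP synthase gene Atp5b had 4677 and 2585 counts. Among housekeeping noncoding RNAs the spliceosomal RNA gene Rnu12 had 24847 and 10597, and Malat1 had 50313 and 65667.

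Of 21 nuclear receptor and steroid enzyme genes, 4 were called lower (19%, against 3.30% of all genes), namely Ppara and the steroid dehydrogenase genes Hsd11b1 (636 and 111 counts), Hsd17b13 (342 and 35) and Hsd17b2 (261 and 19.9), and none was called higher. The oestrogen receptor gene Esr1 was level at 693 and 767 counts. Srd5a2, the 5-alpha reductase of the male tract, was higher without being called, with 41.6 and 94.3 counts (1.16), whereas Srd5a1 had 179 and 60.4 (-1.55).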

How the data were processed

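Sperm that swam out of incised cauda epididymides was extracted with TRIZOL, depleted of ribosomal RNA, fragmented and prepared with a TruSeq small RNA kit. The authors clipped adapters, kept reads of at least 18 bases, aligned them to mm10 with TopHat (base calls by CASAVA 1.8.2), using a gene annotation and the library type fr-secondstrand, and quantified genes with Cuffdiff. The annotation release is not given in the sources used here. The deposited table holds 1 scaled, estimated count per gene and condition (a signal, pooled over 5 libraries) with the variance of Cuffdiff's model. It has no single-library value, so 1 deviating male cannot be seen. Strand-specific alignment does not show whether counting used the strand, so genes that overlap others are uncertain.

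From these deposited counts, log2 ratios of C57.D300.F2 to C57.D300.F1 were computed with 1 added to each count, for genes with both estimates present and at least 10 counts in 1 condition. Genes past 2 log2 units were called. The alternatives tried were 4 other scalings, pseudocounts of 0.1 and 10, other count minimums and thresholds, a floor of 3 counts and the model SD. Arithmetic was done in Python 3.11.15 with pandas 2.3.3 and numpy 2.4.6 and tested on simulated data. No test between libraries was possible.

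Genes were grouped in 44 lists by known function or cell type, 14 of them for hepatocytes. The comparison and the lists were chosen with earlier results of these data known. Of each list, the members with the highest counts and the exceptions in direction are named, together with the 15 largest differences each way among genes with at least 100 counts. A few list members are not reported here. Promoter and microRNA sequences are from RefSeq (GRCm38.p6, the assembly behind mm10).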

Additional observations from a re-analysis of the deposited data

How the results depend on the processing

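No paired analysis was possible because the table holds 1 pooled value per condition, and leaving out single libraries was not run for the same reason. The counts of called genes moved most with the rule itself. With a threshold of 1 log2 unit 1430 genes were lower and 461 higher, and with a threshold of 3 they were 365 and 17. Adding 10 counts in place of 1 left 26 higher genes and moved the median of the hepatocyte lists to -3.13. A minimum of 100 counts left 23 higher genes. Outside the hepatocyte lists, an alternative added after seeing the data, 335 genes were lower and 57 higher, since no higher gene is in those lists. Under the 4 other scalings 525 to 568 genes were lower and 56 to 73 higher. Equal totals and upper-quartile scaling moved the median of all genes from -0.05 to 0.14. In the same direction, the medians of ribosomal protein, reference, histone and intestine genes went from negative to positive. Of 353 genes that the naming rule allows, none moved by more than 0.5 log2 units under these scalings, 30 did with 10 counts added, 6 with 0.1 added and 5 with values under 3 set to 3. None of them past 2 log2 units changed direction, but small ratios did. Of these genes 26 changed sign with equal totals, 28 with the upper quartile and 5 with totals outside the hepatocyte lists, and these had ratios of at most 0.18 in size. The only error given with the pooled values is that of the Cuffdiff model. Variation between males and between libraries also enters these values but cannot be seen in them. Values of a few counts give no reliable ratio.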

Other observations

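Of 29 leukocyte genes compared, 25 were lower, with a median of -0.73. Called lower were 4 (13.8%, against 3.30% of all genes), among them Cd79a, Cd79b and Ms4a1, and 1 was called higher (3.45%, against 0.333%), S100a8. The macrophage gene Lyz2 was lower without being called (-1.72). The B cell receptor subunit Cd79a had 37.9 counts in C57.D300.F1 against 6.29 in C57.D300.F2, with 28.6 for the C57BL/6J and 4.31 for the FVB/N vehicle set. S100a8, a calcium-binding protein of neutrophils, had 62.9 and 263 counts. Skeletal muscle genes had a median of -0.95. Of the 16 compared, 1 was called lower (6.25%, against 3.30% of all genes), the fast myosin Myh4 (2903 and 719 counts), and none higher. By at least 1 log2 unit, 8 were lower (against 8.35% of all genes) and 2 higher (against 2.69%). Collagens and fibroblast genes were higher in 19 of 22 cases without any call (median 0.15), and smooth muscle genes had a median of -0.26. None of 26 interferon-stimulated genes was called. Fat cell genes had 2 of 13 called lower (15.4%, against 3.30% of all genes), 1 of them Pck1, named above with liver sugar metabolism. Of the 13, 9 were higher, and the median was 0.16. Intestine genes had 3 of 8 called lower (37.5%), among them Apoa4, also an apolipoprotein. In that list 3 were higher by at least 1 log2 unit (against 2.69% of all genes), without a call. The blood, kidney and brain lists, with 9, 8 and 10 genes compared, had no call.

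Values of 3 immediate early genes, chosen after their values were seen, were as follows. Fos had 217 counts in the first generation and 608 in the second (log2 ratio 1.48), Egr1 had 126 and 405 (1.68), and Fosb had 23.2 and 167 (2.80). Only Fosb passed 2 log2 units. C57.CTL.F1 had 667 counts of Fos and 183 of Fosb, and FVB.CTL.F1 had 145 and 39.8.

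Of 25 Sertoli and Leydig cell genes, 11 were compared and 14 stayed under 10 counts. Among the 11, 1 was called higher (9.09%, against 0.333% of all genes), none was called lower, and the median was 0.33. The called gene was Cyp17a1, a steroidogenic enzyme, with 18.6 and 85.6 counts. Star had a ratio of 0.33 and Gata4 of -1.87. Long noncoding RNAs were more often higher than lower, in 677 of 1022 cases with a median of 0.26, whereas small nucleolar RNAs had a median of 0.02 over 108 genes.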
